A study of Homo sapiens with 8 samples.

Results

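Expression and polyadenylation site (PAS) usage were compared between GNA11 and the other G protein alpha subunit genes GNAQ, GNAS, GNAI1, GNAI2, GNAI3, GNA12 and GNA13. The 8 genes were taken by symbol. All 8 were among the 60651 genes of the RNA-seq table, and 6 were among the 15988 genes that a PAS of the 3′ end table names alone. HEK293T cells derive from human embryonic kidney, and HEK293TAPA cells are HEK293T cells sorted for a medium level of a stably integrated alternative polyadenylation (APA) reporter. In every group these cells also received dPguCas13b, which lacks nuclease activity and so occupies the RNA paired with its gRNA without cutting it, and were collected 48 h later. The gNT group received a gRNA without a target, and the gUSE group a gRNA against the upstream UGUA element of the PAS in the reporter. Each gRNA had 2 libraries for RNA-seq (gNT replicates 5 and 6, gUSE replicates 7 and 8) and 2 for 3′ end sequencing (replicates 1 and 2 of each). No library held a gRNA against an alpha subunit gene, so that the comparison asks whether gUSE moved genes other than its target.

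RNA-seq libraries held 12470010 and 12977693 reads on genes with gNT and 11576399 and 10259757 with gUSE. The 3′ end reads, which start at the poly(A) junction, numbered 2380992 and 1593763 with gNT and 2196210 and 1701699 with gUSE in the part of the table analysed. That part ended within chromosome 7, and 3′ end reads of GNAQ on chromosome 9 and of GNAI1 further along chromosome 7 were not analysed here. The labels do not say whether libraries of a group came from separate cultures, so p-values measure the spread between these samples, which may be technical. The HEK293T markers IRS4 and LIN28B had 8456 to 11492 and 1664 to 2065 RNA-seq reads per library, NEFM 327 to 429 and XPO1 6059 to 7466, whereas PAX2 had 33 to 60. Of the markers of other cell types, HBB had 0 reads in each library, PTPRC, CD3E and DCN at most 5, ALB, APOA1 and COL3A1 at most 16 and COL1A1 at most 120.

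The alpha subunit of a heterotrimeric G protein binds GTP when its receptor is activated, leaves the beta and gamma subunits and acts on effectors until it hydrolyses the GTP. The subunits encoded by GNA11 and GNAQ activate phospholipase C beta, that of GNAS stimulates adenylyl cyclase, those of GNAI1, GNAI2 and GNAI3 inhibit it, and those of GNA12 and GNA13 form the G12 class. An mRNA 3′ end is set by a PAS, usually with the hexamer AATAAA or a variant upstream of the cleavage site, and genes with several PASs make transcripts that differ in their 3′ UTR or last exon.

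GNA11 is the alpha subunit gene for which the study designed gRNAs of its own, and their 4 targets are shown because they mark the stretch of its 3′ UTR to which the 3′ end reads can be compared. An exact search of GRCh38 placed them at chr19:3121398-3121419 (g1), chr19:3121375-3121396 (g2), chr19:3121355-3121376 (g3) and chr19:3121328-3121349 (g4), plus strand, in exon 7, the last of the canonical transcript (chr19:3120989-3123999), and downstream of its last coding base at 3121176. Capitals mark the motif TGTA, which 1 of the 4 holds.
GNA11-g1: tttgtcaacggcaaaggcagcc
GNA11-g2: acacttcgcgcaccttctcacc
GNA11-g3: aTGTAcatctctccctccgtac
GNA11-g4: tggtttttatttcacagttatc

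These 4 targets spanned 92 nt and ended 35 nt before a run of 16 A. The 100 nt upstream of that run held 0 copies of AATAAA, 0 of its variant ATTAAA and 1 of TGTA. At the annotated 3′ end of GNA11, by contrast, the last 19 nt began with AATAAA. Canonical transcripts of all 8 alpha subunit genes held AATAAA in their last 50 nt, between 19 nt (GNA11) and 35 nt (GNAQ) from the end, as did 64.2% of 19699 canonical protein-coding transcripts. Within the same 50 nt TGTA was found in GNAI1, GNAI2, GNAI3 and GNA13 and in 29.4% of those transcripts. A match of letters is a description and does not show a site in use.

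The targeted stretch has a close copy on chromosome 7, next to an annotated processed pseudogene (chr7:66505155-66506223, minus strand). Of the 127 bases from the first target base to the run of A, 115 were identical in the copy, with 8 mismatches and 4 gap positions. The targets of g2 (chr7:66504936-66504957) and g4 (chr7:66504979-66505000) were identical there, and that of g3 differed by 3 substitutions and 4 gap positions. That of g1 (chr7:66504913-66504934) differed by G11T, C18G and C21T, counted from 1 at the 5′ end with the base of the target first, and capitals mark these bases in the copy.
GNA11-g1, copy on chromosome 7: tttgtcaacgTcaaaggGagTc
Only uniquely mapped reads were counted in both assays, so that reads matching GNA11 and its copy equally well were not in the tables, and how many these were was not tested. The pseudogene itself had 0 and 2 RNA-seq reads with gNT and 3 and 0 with gUSE.

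The closest sense-strand match to the gUSE target in the 8 genes had 6 mismatches (GNAQ, GNAI1, GNAI3, GNA12 and GNA13), and in GNA11 it had 8. For gNT the fewest were 6, in GNAI1 and GNA12, and 7 in GNA11.

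Among uniquely mapped 3′ end reads, GNA11 had nearly all at 1 PAS. Of its 6 listed PASs, that at position 3123997 had 209 and 159 reads (gNT) and 173 and 135 reads (gUSE). Its share of the reads of all listed GNA11 PASs was 97.2% and 99.4% with gNT and 97.7% and 97.8% with gUSE, or 98.0% ± 0.932 (SD, n = 4). These shares overlapped between the groups. No other GNA11 PAS met the threshold for an expressed PAS (5 or more reads in more than 1 library), so that its usage was 100% throughout and no usage test could be made for GNA11. Over the 4 libraries it held 676 of 690 reads (98.0%, Wilson 95% interval 96.6 to 98.8%). This interval, like the others given for shares, covers counting error only, since several reads may stem from 1 molecule. Molecular identifiers are not mentioned in the study's methods. Reads shared with the copy on chromosome 7 are missing from these shares, in a number that was not tested.

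The remaining 14 GNA11 reads lay at 4 PASs. That at 3121432 had 3 and 0 reads (gNT) and 1 and 2 reads (gUSE), 6 in all. That at 3123794 had 3 and 0 with gNT and 1 and 1 with gUSE. At 3115427 there were 2 reads and at 3121865 to 3121894 there was 1, while 3121345 had 0. Positions in the PAS table are on a build that was not named, and they are given as listed. They are not GRCh38 positions, since the expressed PASs of GNAS, GNAI2, GNAI3 and GNA13 all lie outside these genes on GRCh38. By spacing, the PAS at 3121432 lay 2565 nt upstream of the most used PAS, and the last target base (g1) 2580 nt upstream of the annotated end of GNA11 on GRCh38. If the most used PAS is the annotated end, the PAS at 3121432 is the listed PAS closest to the end of the targeted stretch, 15 nt downstream of it. It held 0.87% of GNA11 reads (Wilson 95% interval 0.399 to 1.88%), as the plot of GNA11 reads by distance shows. With so few reads its use could not be compared between gUSE and gNT.

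**Figure D1:**
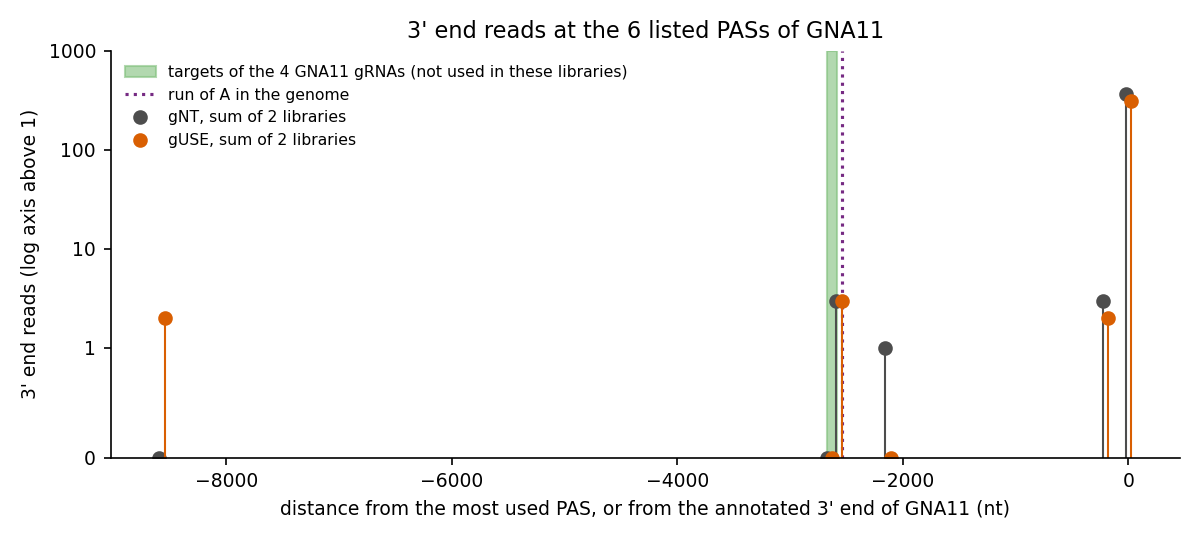
3′ end reads at the 6 listed PASs of GNA11 (vertical axis, reads summed over 2 libraries, log scale above 1) against distance in nt from the most used PAS (horizontal axis), with gNT and gUSE drawn slightly apart. The green band and dotted line give the gRNA targets and the run of A by their distance from the annotated end on GRCh38; 676 of 690 reads lie at distance 0, and 6 at the PAS beside the band.

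Single-PAS genes were common in these libraries. Of 6715 genes with at least 100 3′ end reads, 2367 (35.2%) had 1 expressed PAS, and the median gene had 81.8% of its reads at its most used PAS. Among genes with 1 expressed PAS the median of that share was 98.5%, against 98.0% for GNA11. Of all 6715 genes, GNA11 was above 78.9% in that share, counted over uniquely mapped reads. GNAS, whose most used PAS held 89.2% of its reads over the 4 libraries, was above 60.1%, GNAI3 (76.1%) above 43.9%, GNAI2 (60.4%) above 27.9%, GNA12 (54.5%) above 22.1% and GNA13 (40.6%) above 8.61%. The 6 genes therefore covered most of the range seen across genes.

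PAS usage, the share of a PAS in the reads at expressed PASs of its gene, was tested for 17 PASs of 5 alpha subunit genes, with PASs numbered by increasing position. GNAS had 6 expressed PASs of 22 listed, GNAI2 2 of 8, GNAI3 3 of 23, GNA12 3 of 14 and GNA13 3 of 12. Across the table edgeR called 0 of 14965 PASs (0%) at an adjusted p under 0.05 with a usage change above 0.1, so that 0 of the 17 was called. At an unadjusted p under 0.05 there were 658 PASs (4.4%) and 1 of the 17, and a DEXSeq-style model in DESeq2 called 0 PASs, with 212 and 0 of the 17 at an unadjusted p under 0.05. Adjusted p was 1 for each of the 17 in edgeR. In 3 of the 17 both gUSE libraries lay above both gNT libraries, against 18.9% of all PASs tested, and in 4 both lay below, against 18.3%.

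GNAS, the stimulatory subunit gene, ended mainly at PAS6 (chromosome 20, 57486154 to 57486247, plus strand), with a usage of 88.9% and 90.6% with gNT and 89.8% and 92.4% with gUSE. These values overlapped. Its 5 other expressed PASs each held under 5% in each library. GNAS:PAS4 (57485889 to 57485927) had 10 and 7 reads (gNT) and 3 and 2 reads (gUSE), or 2.13% and 2.05% against 0.713% and 0.631%. Both gUSE libraries were below both gNT libraries, and this was the 1 PAS with an unadjusted p under 0.05 (adjusted p = 1 in edgeR). GNAS:PAS3 (57475465) had 8 reads in each gNT library and 4 and 1 with gUSE (adjusted p = 1 in edgeR).

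GNAI2, an inhibitory subunit gene, showed the widest usage difference among the 17. GNAI2:PAS1 (chromosome 3, 50296246 to 50296342, plus strand) had 43 and 34 reads (gNT) and 34 and 34 reads (gUSE), and the more distal GNAI2:PAS2 (50296785) had 24 and 14 with gNT and 24 and 33 with gUSE. Usage of PAS1 was 64.2% (Wilson 95% interval 52.2 to 74.6%) and 70.8% (56.8 to 81.8%) with gNT. With gUSE it was 58.6% (45.8 to 70.4%) and 50.7% (39.1 to 62.3%). Both gUSE libraries were lower, by 12.8 percentage points in the mean (67.5% ± 4.71 against 54.7% ± 5.57, SD, n = 2), yet the intervals of single libraries overlapped and the test did not separate the groups (adjusted p = 1 in edgeR). The median size of the usage difference over all PASs tested was 2.61 percentage points.

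GNAI3, another inhibitory subunit gene, used mainly PAS2 (chromosome 1, 110136131 to 110136172, plus strand), with a usage of 82.9% and 84.8% with gNT and 84.8% and 87.6% with gUSE. The lowest gUSE value was just under the highest gNT value. Its PAS1 and PAS3 lay between 3.16% and 12.0% in the 4 libraries.

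GNA12 and GNA13, both on the minus strand, so that PAS1 is their most distal expressed PAS, spread their reads more widely. GNA12:PAS1 (chromosome 7, 2767739) had 47 and 36 reads (gNT) and 57 and 41 reads (gUSE), or usage of 51.6% and 62.1% against 67.1% and 66.1%. Usage of GNA12:PAS2 (2768193) was 31.9% and 31.0% with gNT and 23.5% and 22.6% with gUSE. The groups did not overlap at either PAS, and neither difference, 9.74 and -8.40 percentage points, was called (adjusted p = 1 in edgeR for both). The first ran from 4.53 to 14.9 when single libraries were left out. GNA13 had no dominant PAS, with 30 and 23 reads (gNT) and 22 and 17 (gUSE) at PAS1 (chromosome 17, 63005407) and 32 and 22 with gNT and 33 and 16 with gUSE at PAS2 (63006833). Its 3 PASs overlapped between the groups, as the plot of usage by library shows.

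RNA-seq levels were compared between genes per length, as RPKM on the union of exons. Among 16551 tested genes with a length, the median level was 4.46 RPKM. Of the Gq class, GNA11 had 21.4 ± 1.07 RPKM (SD, n = 4 libraries), above 86.0% of those genes, and GNAQ 12.1 ± 0.601. GNAS was the highest at 32.5 ± 0.383 RPKM. Among the inhibitory subunits GNAI3 had 12.0 ± 0.535, GNAI2 6.59 ± 0.423 and GNAI1 0.913 ± 0.0723 RPKM, the last above 19.0% of tested genes. Of the G12 class, GNA13 had 22.2 ± 1.13 and GNA12 6.15 ± 0.596 RPKM.

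In order of level the genes ran GNAS, GNA13, GNA11, GNAQ, GNAI3, GNAI2, GNA12 and GNAI1. GNA11 did not differ from GNA13 beyond the spread of the libraries, nor GNAI3 from GNAQ, nor GNA12 from GNAI2, while the other neighbours were apart in all 4 libraries. The order depends on which length is used. With the length of the canonical transcript GNA11 was second at 32.1 RPKM, ahead of GNA13 at 22.8, and GNAI2 followed at 22.0. GNAS reached 389 RPKM on that scale, because its canonical transcript has 1854 nt and the union of its exons 22221 nt. Pseudogenes named after the 8 genes had at most 2 reads per library. The antisense gene GNAS-AS1 had 18 and 19 reads (gNT) and 15 and 8 reads (gUSE), and its reads cannot be told apart from those of GNAS where they overlap if counting did not use strand.

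Between gUSE and gNT the RNA-seq differences of the 8 genes were small, and 0 of 8 was called. GNA11 had 1672 and 1626 reads (gNT) and 1609 and 1436 reads (gUSE), or 21.3 and 19.9 RPKM against 22.1 and 22.3. Both gUSE libraries lay above both gNT libraries, by a log2 fold change of 0.095 (SE 0.043, 95% interval 0.005 to 0.185, adjusted p = 0.599 in edgeR). It ran from 0.046 to 0.14 when single libraries were left out. GNAQ, also of the Gq class, had 1007 and 1057 reads (gNT) and 987 and 922 reads (gUSE), or 11.6 and 11.7 RPKM against 12.2 and 12.9. Both gUSE libraries were again higher (log2 fold change 0.098, SE 0.052, adjusted p = 0.675 in edgeR), with values from 0.065 to 0.13 when single libraries were left out.

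GNAS had 9118 and 9253 reads (gNT) and 8412 and 7351 reads (gUSE), or 32.9 and 32.1 RPKM against 32.7 and 32.2. The groups overlapped, and the interval of the log2 fold change ran from -0.061 to 0.039, the narrowest of the 8. GNAI3 had 1313 and 1339 reads (gNT) and 1302 and 1154 reads (gUSE), or 11.6 and 11.4 RPKM against 12.4 and 12.4, higher in both gUSE libraries (log2 fold change 0.099, SE 0.045, adjusted p = 0.599 in edgeR). GNAI1 had 244 and 290 reads (gNT) and 273 and 234 reads (gUSE), or 0.809 and 0.924 RPKM against 0.975 and 0.943. Its groups did not overlap either, and its interval, from -0.072 to 0.343, was the widest of the 8. GNAI2 had 6.73 and 6.12 RPKM with gNT and 7.10 and 6.41 with gUSE, which overlap.

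GNA13, of the G12 class, had 1651 and 1859 reads (gNT) and 1729 and 1494 reads (gUSE), or 20.6 and 22.3 RPKM against 23.2 and 22.6 (log2 fold change 0.087, SE 0.044, adjusted p = 0.654 in edgeR). Leaving out single libraries gave log2 fold changes from 0.030 to 0.15. GNA12 had 5.58 and 6.03 RPKM with gNT and 5.99 and 6.99 with gUSE, and these values overlapped. In bulk RNA, fewer cells with a transcript and less of it per cell cannot be told apart.

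Counted over the 8 genes, 5 (GNA11, GNAQ, GNAI1, GNAI3 and GNA13) were higher in both gUSE libraries than in both gNT libraries, against 21.2% of 16594 tested genes, and 0 were lower in both, against 16.7%. The median log2 fold change of the 8 was 0.097, from -0.011 (GNAS) to 0.145 (GNA12), and that of all tested genes 0.00082. The GNA12 value ran from 0.038 to 0.25 when single libraries were left out. Of the 8 values 7 were above 0, against 50.3% of all tested genes. With 5% of all genes below -0.41 and 5% above 0.33, the 8 values lay within the range of all genes. That range takes in genes with few counts and was not matched on level, so it says little about genes as well counted as these. edgeR called 13 genes (0.0783%) at an adjusted p under 0.05 and 1323 (7.97%) at an unadjusted p under 0.05, and 2 of the 8, GNA11 and GNAI3, were among the latter. DESeq2 called 0 of the 8 and 1 gene in all, with 0 of the 8 and 212 genes in all at an unadjusted p under 0.05.

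In the 3′ end libraries, where reads at the PASs of a gene were summed, 0 of 6 genes was called. GNA11 had 215 and 160 reads (gNT) and 177 and 138 reads (gUSE), or 101 and 113 CPM (scaled to the reads at PASs naming 1 gene) against 90.1 and 90.9. Both gUSE libraries lay below both gNT libraries, opposite to RNA-seq, with a log2 fold change of -0.23 (SE 0.13, 95% interval -0.50 to 0.03, adjusted p = 0.545 in edgeR). GNAS had 223 and 244 CPM with gNT and 218 and 210 with gUSE, also lower in both gUSE libraries (log2 fold change -0.11, SE 0.09, adjusted p = 0.717 in edgeR). Leaving out single libraries gave log2 fold changes from -0.19 to -0.05. GNAI3 had 123.5 and 123.7 CPM with gNT and 126.8 and 125.1 with gUSE. This was the closest match between libraries among the 6 genes relative to level, together with GNA12, which had 48.1 and 47.3 CPM with gNT and 46.9 and 46.8 with gUSE. GNA12 had only 67 to 102 reads per library, and at such counts a match this close describes these libraries only. GNA13 had 34.4 and 39.6 with gNT and 40.7 and 29.6 with gUSE, and GNAI2 31.6 and 33.9 with gNT and 29.5 and 44.1 with gUSE. For these 2 genes the gUSE libraries stood on either side of the gNT libraries.

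Of the 6 genes, 3 (GNA11, GNAS and GNA12) were lower in both gUSE libraries, against 20.8% of 8559 tested genes, and 1 (GNAI3) was higher in both, against 20.3%. For GNA12 and GNAI3 the log2 fold changes, -0.029 (SE 0.18) and 0.029 (SE 0.11), were smaller than their SE. The median log2 fold change was -0.03, from -0.23 (GNA11) to 0.15 (GNAI2), and that of all tested genes 0.0054. The GNAI2 value changed sign when single libraries were left out (-0.14 to 0.44). edgeR called 41 genes (0.479%) and found 902 (10.5%) at an unadjusted p under 0.05, with 0 of the 6 among either. DESeq2 gave an adjusted p to 594 genes, none of the 6 among them, and called 14, with 0 of the 6 and 230 genes in all at an unadjusted p under 0.05. The 2 assays used different libraries, and the difference between them for GNA11 was not tested.

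**Figure D2:**
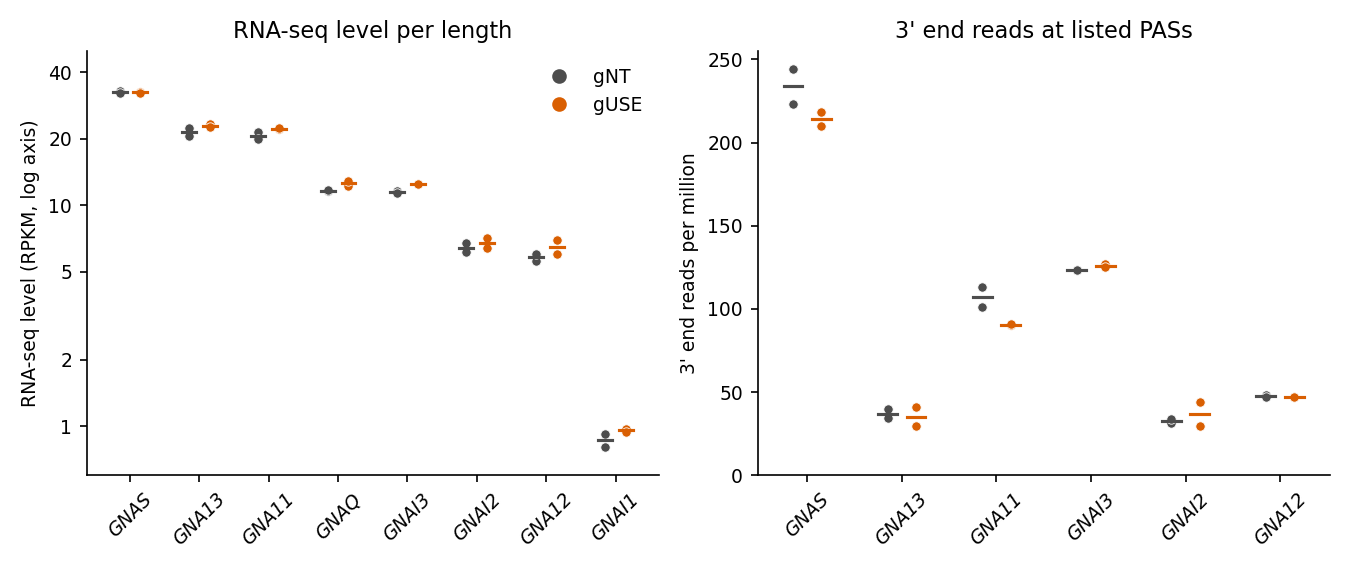
Left, RNA-seq level (vertical axis, RPKM, log scale) of each gene (horizontal axis) in each library; right, 3′ end CPM at the PASs of 6 genes. Points are libraries, gNT in grey and gUSE in orange, and bars are group means; GNA11 with gUSE lies above gNT on the left (22.1 and 22.3 against 21.3 and 19.9 RPKM) and below on the right (90.1 and 90.9 against 101 and 113 CPM).

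**Figure D3:**
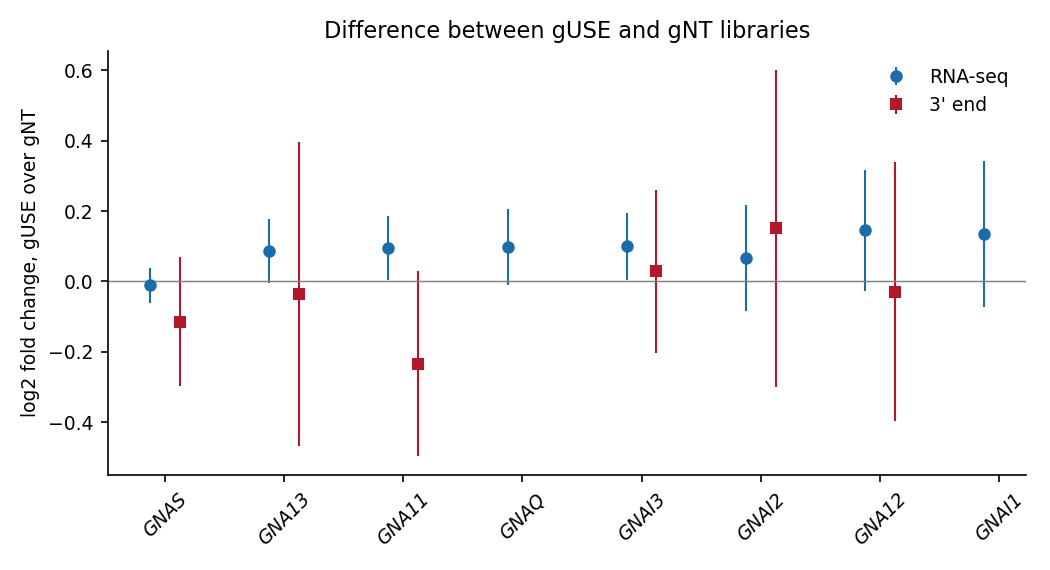
Log2 fold change of gUSE over gNT (vertical axis) for each gene (horizontal axis) in RNA-seq (circles) and 3′ end libraries (squares), with 95% intervals from edgeR, n = 2 libraries per group. RNA-seq values run from -0.011 (GNAS) to 0.145 (GNA12) and 3′ end values from -0.23 (GNA11) to 0.15 (GNAI2).

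GNA11 was set against the other alpha subunit genes by the log2 ratio of GNA11 to each of them within a library, which needs no normalisation between libraries. With 2 libraries per group the smallest p a two-sided exact permutation test can give is 0.333, so that no difference could pass 0.05 and the values are given as a description. In RNA-seq the log2 ratio of GNA11 to GNAS was -2.45 and -2.51 with gNT and -2.39 and -2.36 with gUSE. Its difference of 0.11 was the largest of the 7 comparisons and the only 1 in which the groups did not overlap (95% interval -0.04 to 0.25, on the pooled spread of 2 libraries per group). Such a separation reaches only the smallest p of 0.333 (two-sided exact permutation test), and its share over all genes was not tested. The differences for the other 6 genes lay between -0.053 (GNA12) and 0.033 (GNAI2).

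In the 3′ end libraries the mean ratio of GNA11 was lower with gUSE against each of 5 genes, by differences in log2 ratio from -0.12 (GNAS) to -0.38 (GNAI2). When single libraries were left out, the difference against GNAI2 ran from -0.67 to -0.10, and that against GNA13, -0.16 with all libraries, changed sign (-0.39 to 0.08). Against GNAI3 it was -0.29 and -0.13 with gNT and -0.49 and -0.46 with gUSE, a difference of -0.27 (95% interval -0.61 to 0.07). The groups did not overlap for GNAS, GNAI2, GNAI3 and GNA12, and they overlapped for GNA13. Groups of 2 libraries that do not overlap reach a two-sided exact permutation p of only 0.333. For how many of all genes the ratio to GNA11 separates the groups was not tested. All 5 intervals included 0. These 5 comparisons share the GNA11 counts and are not independent.

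Genes that work with the alpha subunits were taken from 4 lists, and edgeR called 0 of them in either assay. Of the other alpha subunits 3 of 8 were tested in RNA-seq, GNAZ, GNAL and GNAO1, at 5.88 ± 0.565, 1.71 ± 0.193 and 0.385 ± 0.0228 RPKM (SD, n = 4). Their log2 fold changes were 0.14, 0.074 and 0.080. In the 3′ end libraries, where GNAO1 was not tested, they were 0.19 (GNAZ) and -0.13 (GNAL). The other 5 had at most 9 reads per library.

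Of the beta and gamma subunits 13 of 17 were tested in RNA-seq and 7 in 3′ end libraries, with median log2 fold changes of -0.047 and 0.076. GNB1, GNG10 and GNB2 were the most abundant at 40.3 ± 0.290, 28.5 ± 1.18 and 27.0 ± 0.740 RPKM, and their RNA-seq log2 fold changes were 0.0012, -0.090 and -0.013. GNB1 thus stood at a higher level per length than any of the 8 alpha subunit genes on the union of exons.

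Of the chaperones and regulators, which include the RGS proteins that speed GTP hydrolysis, 17 of 26 were tested in RNA-seq and 12 in 3′ end libraries, with medians of 0.076 and 0.031. RIC8A, a chaperone of alpha subunits, had 9.65 ± 0.983 RPKM, RGS10 8.36 ± 0.894 and GPSM1 7.85 ± 0.374. The log2 fold change of RIC8A was 0.23 in RNA-seq (SE 0.062, adjusted p = 0.316 in edgeR) and -0.32 in the 3′ end libraries (SE 0.20, adjusted p = 0.605 in edgeR).

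Of the effectors 16 of 20 were tested in RNA-seq and 12 in 3′ end libraries, with medians of -0.021 and 0.037. The adenylyl cyclase gene ADCY3 had 7.85 ± 0.473 RPKM and TRIO 7.51 ± 0.173. Their RNA-seq log2 fold changes were 0.082 and -0.056, and neither was called. At an unadjusted p under 0.05 edgeR found 2 of 17 chaperones and regulators, 2 of 16 effectors and 0 in the other lists in RNA-seq, against 7.97% of all tested genes. In the 3′ end libraries it found 1 of 7 beta and gamma subunits, 2 of 12 effectors and 0 in the other lists, against 10.5%. DESeq2 called 0 of the list genes, but in the 3′ end libraries it gave an adjusted p to only 1 beta or gamma subunit and 1 effector. At an unadjusted p under 0.05 it found 1 of 17 chaperones and regulators and 2 of 16 effectors in RNA-seq, where 212 of all 16594 genes were, and 1 of 12 effectors in the 3′ end libraries, where 230 of all 8559 were.

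Among 38 other alpha subunit and list genes tested in both assays, the 3 whose counts varied most like those of GNA11 over the 8 libraries were ADCY6, GNAS and ADCY9. Likeness was the root mean square difference in log2 CPM centred within each assay, which was 0.055, 0.061 and 0.075. ADCY6 and ADCY9 encode adenylyl cyclases. With 2 libraries a group this order describes these 8 libraries only.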

How the data were processed

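The authors aligned reads to hg38 with STAR 2.7.9 and the deposited counts are raw numbers of uniquely mapped reads per GENCODE v37 gene for RNA-seq (use of strand not stated) and per PolyA_DB3 PAS for QuantSeq REV 3′ end libraries, with read ends within 24 nt of a PAS. The copy of the PAS table held 228494 PASs, up to position 74921848 of chromosome 7. PASs naming no gene (6.57% to 7.26% of reads) or several genes were left out. Genes reaching 10 counts in 2 or more libraries were tested with edgeR 4.0.16 in R 4.3.3 (glmQLFTest, TMM) and PAS usage with diffSpliceDGE, both with Benjamini-Hochberg adjustment over all features. DEXSeq, used by the study, was not run, and its model was rebuilt in DESeq2 1.42.0. Lengths came from GENCODE v44. gRNA targets came from the study's oligonucleotide list and were searched with Python 3.11.15 and pysam 0.24.0. Pairs of libraries were compared by chi-square per degree of freedom, a ratio of variances that is 1 for sampling noise alone. Within groups it was 1.43 to 1.61 (RNA-seq) and 1.49 to 1.50 (3′ end), so that none was a duplicate. Between groups it was 1.67 to 2.17 (RNA-seq) and 1.91 to 2.28 (3′ end). Named were the 8 genes and their expressed PASs, list genes past the threshold, the 3 most abundant tested genes per list (1 effector is not reported here), and the 3 most like GNA11. The unexpressed PASs of GNA11 and the pseudogene on chromosome 7 were chosen after their values were seen. Members and lists were chosen with earlier results of these data known.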

Additional observations from a re-analysis of the deposited data

How the results depend on the processing

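No call of an alpha subunit gene or PAS was gained or lost under the alternatives that gave it an adjusted p. DESeq2 gave none to the alpha subunit genes in 3′ end libraries. With at least 10 reads, or at least 5 reads in all 4 libraries, GNAS:PAS2, GNAS:PAS3, GNAS:PAS4 and GNA12:PAS3 were not among the PASs tested. The log2 fold change of GNA11 kept its direction in both assays under each alternative run, at 0.046 to 0.14 in RNA-seq and -0.32 to -0.16 in 3′ end libraries when single libraries were left out. The number of genes called moved far more. In RNA-seq it was 13, against 1 with DESeq2, 58 without a filter on low counts and 14 to 62 when single libraries were left out. In 3′ end libraries it was 41, against 14 with DESeq2 (594 genes had an adjusted p), 66 without a filter, 74 with robust estimation and 0 to 55 when single libraries were left out. The number of PASs with changed usage was 0, against 1 with at least 10 reads, 1 with at least 5 reads in all 4 libraries, 1 without a threshold on the usage change, and 0 each time when single libraries were left out. A left-out library leaves 1 in its group, which is assumed to vary like the others, and the cause of these differences was not tested.

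With the replicate number as a replicate block, 178 genes were called in 3′ end libraries and 0 PASs. The labels do not say what same-numbered libraries share, and their deviations from the group means had a correlation of 0.113 over 3194 genes. RNA-seq numbers differ between groups, and no paired analysis was possible there.

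Uncalled differences changed sign in the following. Leaving out single libraries gave log2 fold changes of -0.029 to 0.0043 for GNAS and -0.016 to 0.14 for GNAI2 in RNA-seq, and -0.14 to 0.44 for GNAI2 and -0.30 to 0.15 for GNA13 in 3′ end libraries. Usage differences, in percentage points, then ran from -5.03 to 1.89 (GNAI3:PAS1), -3.25 to 1.76 (GNAI3:PAS3), -11.2 to 2.09 (GNA13:PAS1), -1.75 to 4.62 (GNA13:PAS2), -1.01 to 7.27 (GNA13:PAS3), -0.168 to 2.06 (GNAS:PAS1), -0.535 to 0.159 (GNAS:PAS2) and -6.13 to 3.45 (GNA12:PAS3). GNAS:PAS6 was at -1.56 with at least 10 reads and at -1.56 with at least 5 reads in all 4 libraries, where fewer PASs enter the denominator, and GNA13:PAS2 at -3.16 over all listed PASs, where GNAI3:PAS2 moved from 2.31 to 4.39, GNAI3:PAS3 from -0.742 to -0.456, GNA13:PAS1 from -4.57 to -8.44 and GNA13:PAS3 from 3.13 to 1.21. Leaving out libraries for the log2 ratio of GNA11 was chosen after seeing the data. In RNA-seq its differences ran from -0.038 to 0.030 (GNAI3), -0.047 to 0.11 (GNAI2), -0.16 to 0.053 (GNA12), -0.19 to 0.10 (GNAI1), -0.059 to 0.051 (GNAQ) and -0.099 to 0.11 (GNA13), and in 3′ end libraries from -0.39 to 0.080 (GNA13). The others kept their sign, and those that moved by over 1.5 times ran from 0.065 to 0.13 (GNAQ), 0.042 to 0.24 (GNAI1), 0.038 to 0.25 (GNA12) and 0.030 to 0.15 (GNA13) in RNA-seq, from -0.19 to -0.05 (GNAS) and -0.037 to -0.017 (GNA12) in 3′ end libraries, from 0.901 to 3.72 (GNAI3:PAS2), 0.167 to 1.26 (GNAS:PAS5), 0.022 to 2.66 (GNAS:PAS6) and 4.53 to 14.9 (GNA12:PAS1) in usage, and from -0.67 to -0.10 (GNAI2) and -0.30 to -0.12 (GNA12) in the 3′ end log2 ratio of GNA11. Of the 3′ end genes GNAI2 had 240 reads over 4 libraries, the fewest, and GNAS 1567, the most. How far depth or the 2 libraries per group limit the usage differences was not tested. GNA11 ranked 2 instead of 3 by level when the longest or canonical transcript gave the length.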

Other observations

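The 3′ end reads of a gene can be set against its RNA-seq level as the log2 ratio of CPM (3′ end) to RPKM (RNA-seq), both as means over 4 libraries. Its median over 7935 genes was 2.47, with 5% of genes below 0.433 and 5% above 4.56. GNA13 had 0.702, lower than all but 7.25% of genes, although its RNA-seq level overlapped with that of GNA11, which had 2.21. RPKM was on the union of exons, and with canonical transcripts, shorter for GNA11 by more than for GNA13, the ratios would move closer. The 2 assays used different libraries, and the part of the PAS list in these ratios was not tested.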
